A study of Homo sapiens with 10 samples.

Results

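Aminoacyl-tRNA synthetases are the enzymes that join each amino acid to the transfer RNA that carries it to the ribosome. The genes described here were chosen by name, as 20 genes for cytosolic enzymes and 16 genes, with names ending in 2, for enzymes of mitochondria. All 36 were listed in all 10 libraries, among 36545 genes in the tables of the interferon experiment and 22609 in those of the knockdown experiment. In the interferon experiment all 36 passed the filter on low values. In the knockdown experiment 35 passed, and VARS, the cytosolic valine enzyme, did not.

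Each enzyme recognises 1 amino acid and its transfer RNAs, and EPRS, which carries a glutamate and a proline enzyme in 1 protein, is the exception among the cytosolic members. Several cytosolic enzymes sit in a large multisynthetase complex held together by 3 scaffold proteins, and the others work outside it. The mitochondrial enzymes are encoded in the nucleus and imported, and the genes GARS and KARS give both a cytosolic and a mitochondrial form. WARS, the cytosolic tryptophan enzyme, is known as an interferon-induced gene in many human cell types. Many of the other cytosolic enzymes are known targets of ATF4, the transcription factor of the amino acid response.

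KYSE30, KYSE180 and KYSE450 are cell lines from human esophageal squamous cell carcinoma (ESCC), used at passages 5 to 10. In the interferon experiment each of the 3 lines gave 1 library after IFN-β at 1000 IU/ml for 72 h and 1 library labelled an untreated control, for which the protocol gives PBS over the same time. In the knockdown experiment KYSE30 and KYSE180 each gave 1 library in which a lentivirus lowered IRF1-AS, a non-coding transcript of the IRF1 locus, and 1 vector control library. The virus was made in HEK293T cells. For the treatments the lines are the replicates, so n is 3 lines or 2 lines, with no repeat culture of any line. The SE and p-values rest on the spread among lines, which limma moderates toward that of other genes. The median prior degrees of freedom were 4.37 for IFN-β and 4.19 for knockdown, against 2 and 1 from the lines. A printed SE is therefore largely borrowed and is not the spread of that gene alone.

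The deposited values are FPKM (fragments per kilobase of transcript, scaled to library size), with no read depth stated. Between 10992 and 12348 genes reached 1 FPKM in a library. As deposited, the median log2 ratio of IFN-β over untreated across all genes was 0.41 in KYSE450, against −0.01 in KYSE30 and −0.02 in KYSE180, so libraries were scaled to each other within an experiment, and levels below are scaled FPKM unless they are called deposited. The 6 squamous markers summed to between 169.89 and 4896.94 deposited FPKM after IFN-β, and between 163.64 and 6213.96 FPKM in untreated cells. KYSE30 was the low end of the interferon experiment, with the basal keratin KRT5 at 1.46 scaled FPKM after IFN-β and 3.10 FPKM untreated. There TP63, the squamous transcription factor, stood at 30.3 FPKM after IFN-β and 27.8 FPKM untreated. In the knockdown experiment, which was scaled separately, KRT5 in KYSE30 stood at 230 FPKM after knockdown and 123 FPKM in the vector control. The 5 leukocyte markers summed to at most 1.61 FPKM and the 5 stromal and endothelial markers to at most 6.20 FPKM in any library. C5orf56, which the annotation used here names IRF1-AS1, stood at 3.07 FPKM after knockdown and 7.19 FPKM in the vector control in KYSE30, and at 0.924 FPKM after knockdown and 1.05 FPKM in the vector control in KYSE180. It was therefore lower by value in the knockdown library of KYSE30 and near 1 FPKM in both libraries of KYSE180, where it does not check the label (−0.55 ± 0.31, SE, n = 2 lines, limma, adjusted p = 0.812).

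The first question was how WARS responded to IFN-β beside the other synthetases. WARS (ENSG00000140105, chromosome 14, 100333788 to 100376805, minus strand, GRCh38) stood at 18.7 FPKM in KYSE30, 98.9 FPKM in KYSE180 and 126 FPKM in KYSE450 after IFN-β, against 17.2, 32.7 and 57.6 FPKM in the untreated libraries of the same lines. It was higher by value in all 3 lines, about 3-fold in KYSE180 and over 2-fold in KYSE450, and nearly level in KYSE30. In bulk libraries fewer cells of a type and less RNA per cell cannot be told apart. The log2 ratios were 1.57 in KYSE180, 1.12 in KYSE450 and 0.11 in KYSE30. Among all genes tested, 24.7% had a larger ratio than WARS in KYSE30, 0.829% in KYSE180 and 1.56% in KYSE450. WARS did not pass the test over all 3 lines, where its mean log2 fold change was 0.93 ± 0.28 (SE, n = 3 lines, 95% interval 0.22 to 1.65, limma, adjusted p = 0.463).

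KYSE30 was not silent to interferon. ISG15, a ubiquitin-like modifier, stood at 1800 FPKM after IFN-β and 48.5 FPKM untreated in KYSE30, at 751 FPKM after IFN-β and 12.7 FPKM untreated in KYSE180, and at 1349 FPKM after IFN-β and 22.6 FPKM untreated in KYSE450. All 9 interferon-stimulated reference genes had a mean log2 ratio above 0, and 6 were called, beside 0.41% of all genes. Among the 6 were IFI27, ISG15, OAS2, IFIT1 and IRF1, with log2 fold changes between 1.30 and 8.28 (limma, adjusted p between 9.38e-06 and 0.0169). The ratios of the called genes in KYSE30 were of the same order as in the other lines, with 8.02 in KYSE30, 8.61 in KYSE180 and 8.21 in KYSE450 for IFI27. The reference genes not called varied more. In KYSE30, KYSE180 and KYSE450, MX1 had 0.98, 5.07 and 1.60, STAT2 2.49, 0.85 and 1.99, and IRF9 2.30, 2.29 and 3.89. The difference between lines in the response of WARS was not tested, since each line gave 1 library an arm.

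WARS was called under 1 of the alternatives tried. On the values as deposited, where 1.91% of all 12428 genes were called in either direction, WARS was the 1 member called (1.09 ± 0.22, limma, adjusted p = 7.17e-05), and in that fit 10827 of the genes tested were given a shared spread in place of their own. Without KYSE30 the value was 1.34 ± 0.23 (limma, adjusted p = 0.109), without KYSE180 it was 0.62 ± 0.27 (adjusted p = 0.655) and without KYSE450 0.83 ± 0.39 (adjusted p = 0.834), so it was called in none of these. Over all alternatives its adjusted p ran between 7.17e-05 and 0.999984, and its log2 fold change stayed above 0.

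The promoters of the members were read for letters linked to interferon and to the amino acid response, from RefSeq windows (GRCh38.p14) of which the 250 bases before each start were searched on both strands. Windows were held for 30 of the 36 members. The interferon-stimulated response element, searched as GAAA repeated after any 2 bases and bound by STAT and IRF factors, was found in 3.02% of all 35116 windows and in 2 members, WARS and EARS2. The gamma-activated site, written TTCNNNGAA and bound by STAT dimers, was found in 6.57% of windows and in 4 members, WARS, WARS2, TARS and PARS2. Both stood together in 0.310% of windows, and WARS, which is annotated with starts 980 bases apart, was the 1 member that held both, upstream of its downstream start. In the lines below, on the strand of the gene and 5′ to 3′, capitals mark the letters searched. They are shown because WARS is the member with the largest response and EARS2 is the other member with the response element.
WARS response element: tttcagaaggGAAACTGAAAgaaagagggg
WARS activated site: gctcaagtgtTTCTGAGAAtctgggtgat
EARS2 response element: cctgccacgcTTTCGCTTTCccaagctgaa
The first lies at chr14:100375383-100375412 and ends its capitals 46 bases before the start at 100375347. The second lies at chr14:100375471-100375499. Both fall in an annotated 5′ exon of longer WARS transcripts. The third lies at chr16:23557554-23557583, in overlapping first exons of EARS2, the mitochondrial glutamate enzyme, and of UBFD1 on the other strand. EARS2 had a log2 ratio of 0.46 in KYSE180, against −0.05 in KYSE30 and −0.23 in KYSE450. A match of letters is a description and not a binding site or a cause.

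**Figure D1:**
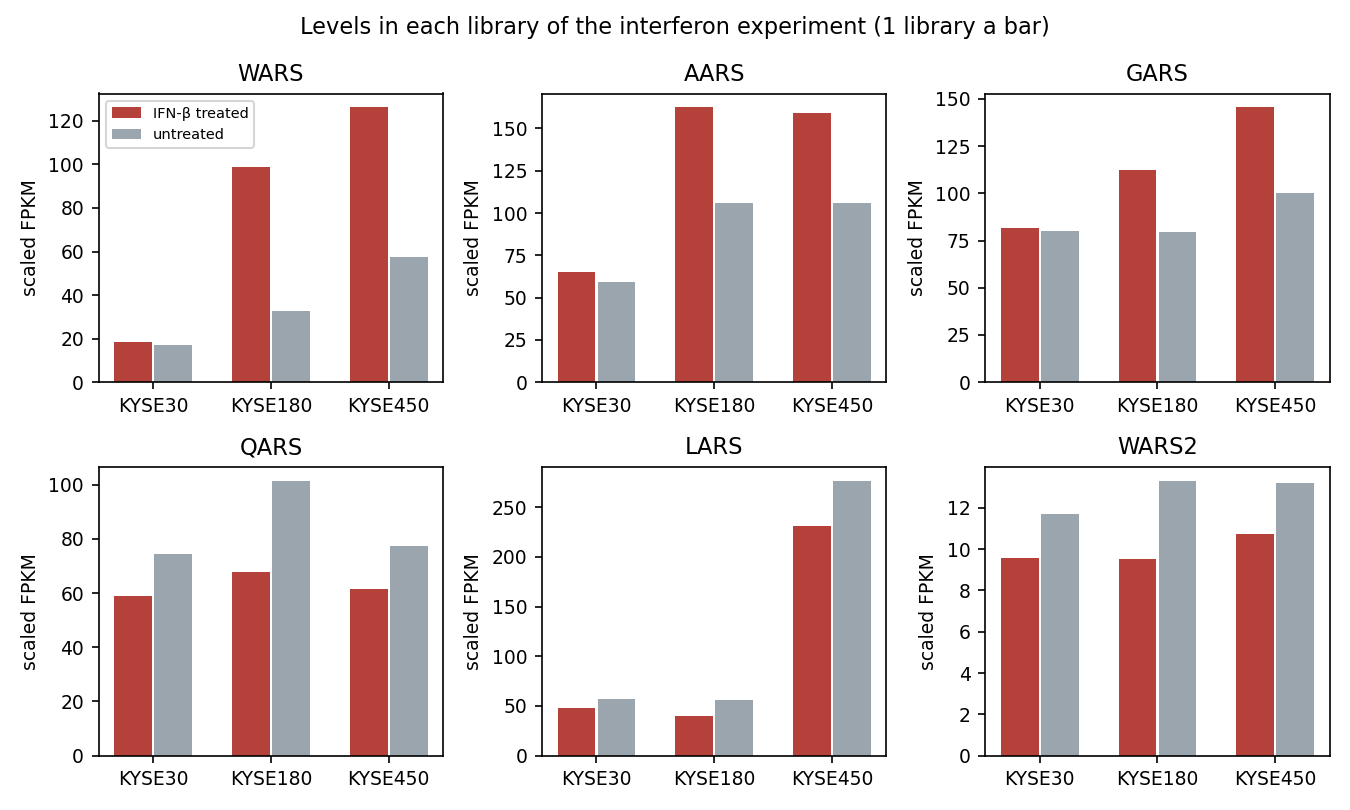
Scaled FPKM (vertical axes, from 0) in each library of the interferon experiment for WARS, AARS, GARS, QARS, LARS and WARS2, with IFN-β libraries in red left of the untreated library of the same line in grey, 1 library a bar. WARS stood at 98.9 and 126 FPKM after IFN-β in KYSE180 and KYSE450 against 32.7 and 57.6 FPKM untreated, while its bars in KYSE30 were near 18 FPKM, and LARS was high in both libraries of KYSE450.

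None of the 36 members was called after IFN-β by limma, where 0.41% of all 12428 genes were called, all of them higher. At an unadjusted p under 0.05, where 9.74% of all genes stood, there were 7 of the 36 members, WARS, AARS and CARS with higher values and QARS, LARS, WARS2 and IARS2 with lower values. The median 95% interval of a member reached 0.31 to either side on the log2 scale, and for 35 of the 36 members the whole interval lay within 2-fold, WARS being the exception. WARS was the 1 member of 36 at or past 2-fold in any line, in KYSE180, where 2.06% of all genes were higher and 2.24% lower by 2-fold, and in KYSE450, where 1.96% were higher and 1.63% lower. At 1.5-fold higher or more there were 6 members in KYSE180 (WARS, MARS, YARS, AARS, CARS and HARS2), 1 in KYSE450 and 0 in KYSE30, while 7.25%, 5.65% and 2.77% of all genes were that much higher in those lines. No member was lower by 1.5-fold in any line, against 8.56% of all genes in KYSE180, 6.61% in KYSE450 and 1.27% in KYSE30.

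Within the cytosolic enzymes, values differed between those of the multisynthetase complex and the rest. Of the 8 complex enzymes (DARS, EPRS, IARS, KARS, LARS, MARS, QARS and RARS) 1, MARS, had a mean log2 ratio above 0, and of the 12 others 11 did, with FARSB at −0.05. The medians over the complex enzymes were −0.18 in KYSE30, −0.19 in KYSE180 and −0.18 in KYSE450, and over the 12 others 0.03, 0.40 and 0.15. In every line 5 of 8 complex enzymes were lower and 6 of 12 others were higher, while 18.8% of all genes were lower and 16.9% higher in every line. On the values as deposited, which move the median of all genes to 0.12, 4 of the 8 complex enzymes were above 0, and 1 of 8 was above the median of all genes, as under both scalings. No gene of either group was called, so these are counts of signs and carry no test.

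**Figure D2:**
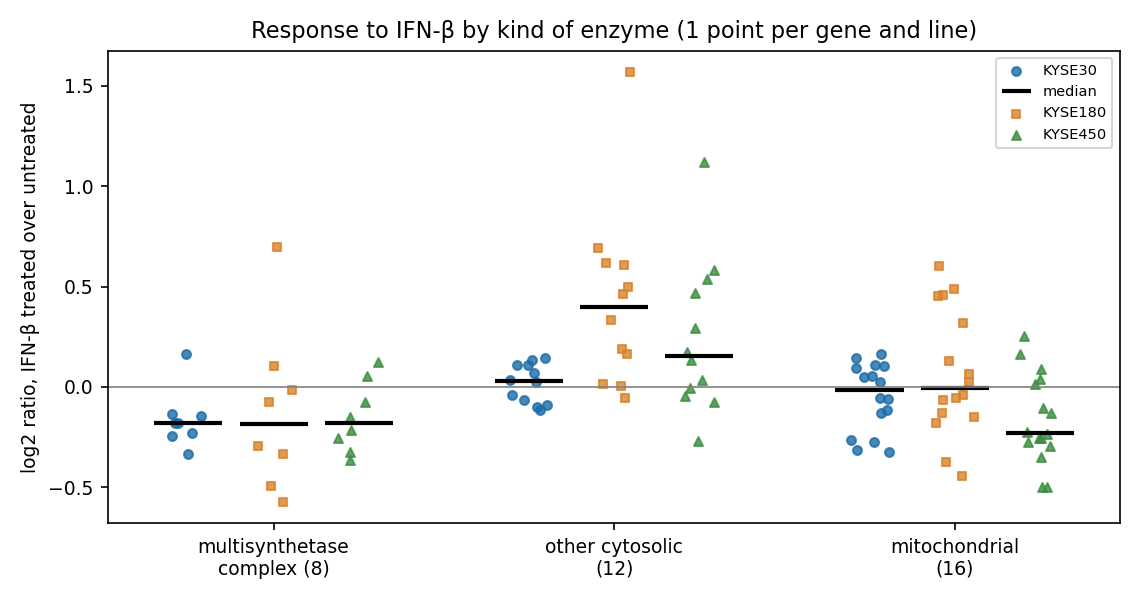
Log2 ratio of IFN-β over untreated (vertical axis, scaled FPKM + 1) for the 8 complex enzymes, the 12 other cytosolic enzymes and the 16 mitochondrial enzymes, with 1 point per gene and line and a bar at the median of each line. The medians of the complex enzymes lay near −0.18 in every line, and those of the other cytosolic enzymes were 0.03, 0.40 and 0.15 in KYSE30, KYSE180 and KYSE450.

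QARS, the glutamine enzyme of the complex, had the lowest values relative to untreated cells. It stood at 58.8, 67.9 and 61.5 FPKM after IFN-β in KYSE30, KYSE180 and KYSE450, against 74.3, 101 and 77.4 FPKM untreated. It was lower in every line, as were 18.8% of all genes. Its log2 fold change was −0.41 ± 0.12 (SE, n = 3 lines, limma, adjusted p = 0.437). LARS, the leucine enzyme of the complex, stood at 48.2, 39.6 and 231 FPKM after IFN-β against 57.3, 56.2 and 277 FPKM untreated (−0.33 ± 0.13, limma, adjusted p = 0.501), lower in each line by far less than the distance of KYSE450 from the other lines. MARS, the methionine enzyme, went the other way within the complex, at 65.4, 92.2 and 113 FPKM after IFN-β against 58.2, 56.6 and 104 FPKM untreated. The 3′ part of MARS overlaps DDIT3, a stress-induced transcription factor on the opposite strand, over 982 bases. DDIT3 stood at 20.8, 62.4 and 62.3 FPKM after IFN-β against 9.54, 17.2 and 54.7 FPKM untreated, and the strand setting of the counting is not stated, so its part in the values of MARS was not tested.

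Among the cytosolic enzymes outside the complex, AARS, the alanine enzyme, came after WARS. AARS stood at 65.3, 163 and 159 FPKM after IFN-β, against 59.0, 106 and 106 FPKM untreated, higher in each line and least so in KYSE30 (0.45 ± 0.15, SE, n = 3 lines, limma, adjusted p = 0.467). GARS, the glycine enzyme, stood at 81.9, 113 and 146 FPKM after IFN-β against 80.05, 79.6 and 100.03 FPKM untreated. CARS, the cysteine enzyme, stood at 19.0, 33.6 and 50.8 FPKM after IFN-β against 17.3, 21.7 and 41.3 FPKM untreated (0.34 ± 0.13, limma, adjusted p = 0.501). YARS (tyrosine) and TARS (threonine) were the others higher by value in every line, with mean log2 ratios of 0.31 and 0.13. SARS, the serine enzyme, varied least of all members, between 93.2 and 105 FPKM over the 6 libraries. By structural class, 5 of 9 class I and 7 of 10 class II cytosolic enzymes had a mean ratio above 0, with medians of 0.11 and 0.03 against −0.01 for all genes.

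**Figure D3:**
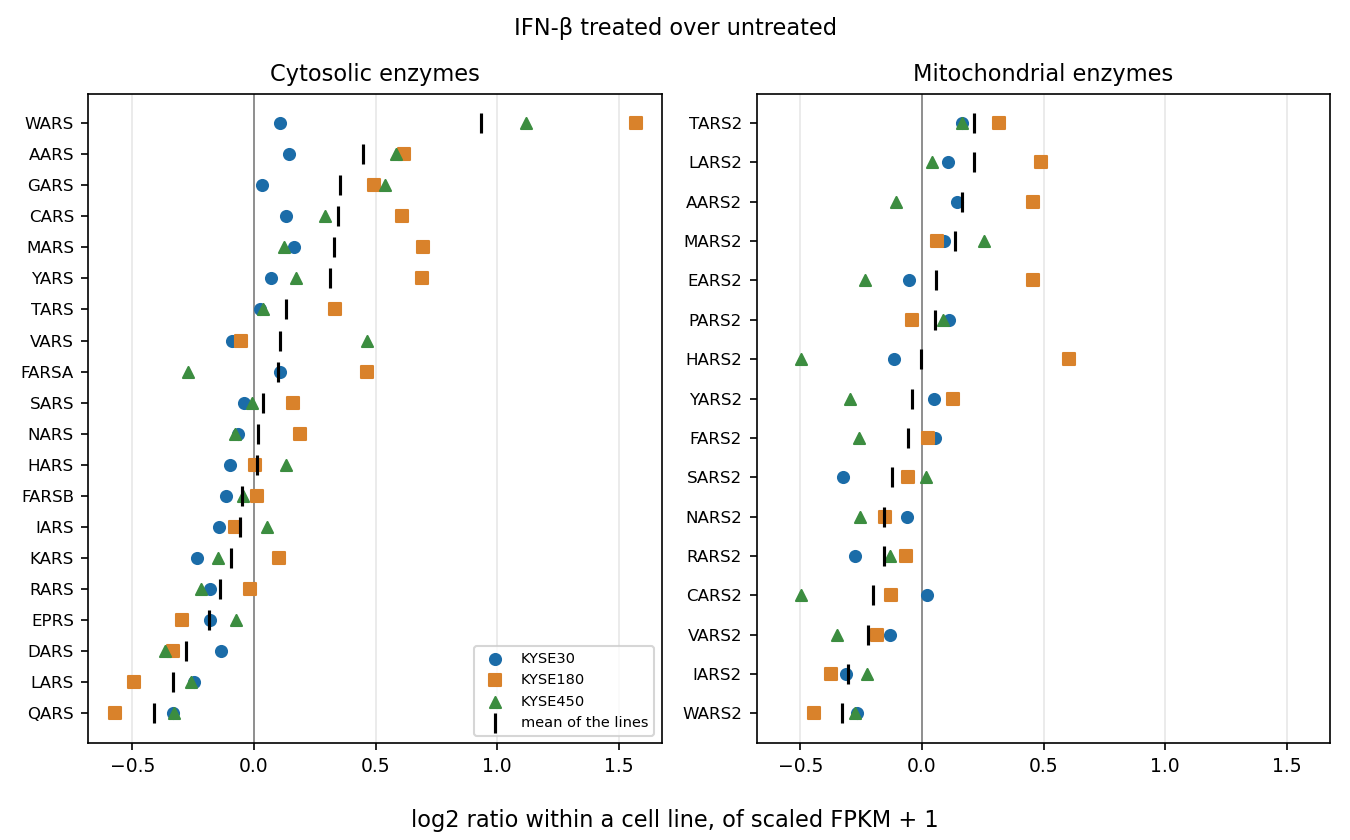
Log2 ratio of IFN-β over untreated (horizontal axis, scaled FPKM + 1) in KYSE30, KYSE180 and KYSE450 for each cytosolic enzyme on the left and each mitochondrial enzyme on the right, ordered by the mean of the lines (black tick). WARS lay at 1.57 in KYSE180 and 1.12 in KYSE450, past every other member in those lines, and at 0.11 in KYSE30, within the other members.

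The mitochondrial enzymes as a group had lower ratios than the cytosolic enzymes in 2 of the 3 lines. The cytosolic median minus the mitochondrial median of the log2 ratios was 0.24 in KYSE450, 0.14 in KYSE180 and −0.06 in KYSE30, with a mean of 0.107 that was smaller than its SD over lines of 0.156. Of the 16 mitochondrial enzymes 6 had a mean ratio above 0, 3 were higher in every line (LARS2, MARS2, TARS2) and 5 lower in every line (IARS2, NARS2, RARS2, VARS2, WARS2). WARS2, the mitochondrial tryptophan enzyme, stood at 9.58, 9.52 and 10.7 FPKM after IFN-β against 11.7, 13.3 and 13.2 FPKM untreated, so that the tryptophan pair had values on opposite sides of 0 (WARS2 −0.33 ± 0.12, SE, n = 3 lines, limma, adjusted p = 0.501). IARS2, the mitochondrial isoleucine enzyme, stood at 99.2, 84.3 and 74.2 FPKM after IFN-β against 123, 109 and 86.9 FPKM untreated (−0.30 ± 0.12, limma, adjusted p = 0.502). CARS2, the mitochondrial cysteine enzyme, had the lowest ratio of all members in KYSE450, at −0.50. WARS exceeded the median of the other cytosolic enzymes by 0.20 in KYSE30, 1.47 in KYSE180 and 1.13 in KYSE450.

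Genes that work beside the synthetases were read from lists that, like the members, were chosen with earlier results known. Of 31 genes of the amino acid response none was called by limma and 8 had an unadjusted p under 0.05, beside the 9.74% of all genes. Of the 31, 27 had a mean log2 ratio above 0, with a median of 0.25 against −0.01 for all genes. Above the median of all genes there were 28 of 31, both here and on the values as deposited. ASNS, asparagine synthetase, stood at 29.1, 181 and 92.5 FPKM after IFN-β against 18.9, 121 and 56.3 FPKM untreated (0.63 ± 0.12, SE, n = 3 lines, limma, adjusted p = 0.152). ATF3, a stress-induced transcription factor, had 0.80 ± 0.18 (limma, adjusted p = 0.251), and ATF4 itself 0.18 ± 0.15 (limma, adjusted p = 0.696). ASNS and ATF3 were higher by value in every line, and in KYSE450 ATF4 was at 318 FPKM after IFN-β and 325 FPKM untreated.

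Letters of the C/EBP-ATF response element, written TGATGNAA and bound by ATF4 with a C/EBP partner, were found in 3.14% of all windows and in 4 members, AARS, GARS, IARS and YARS2. The cyclic AMP response element TGACGTCA was in 1.65% of windows and in 0 members. The matches are printed, 5′ to 3′ on the strand of the gene with the matched letters in capitals, since AARS and GARS had the largest mean ratios after WARS.
AARS: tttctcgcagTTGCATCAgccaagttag
GARS: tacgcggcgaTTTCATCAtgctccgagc
IARS: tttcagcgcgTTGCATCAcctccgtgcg
YARS2: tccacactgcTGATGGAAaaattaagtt
AARS and IARS hold the same 8 letters, at chr16:70289676-70289703, 180 bases before the start of AARS and opposite to coding sequence of DDX19B, and at chr9:92293693-92293720, 6 bases before a start of IARS. The match of GARS lies at chr7:30594835-30594862 and that of YARS2 at chr12:32756077-32756104. Beside the 0.45 of AARS and the 0.35 of GARS, the mean log2 ratios of IARS and YARS2 were −0.06 and −0.04, so members with these letters lay on both sides of 0.

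The elongation factors, which include the carriers of charged transfer RNA, their exchange factors and EEF2, went the other way by value. None of 9 was called by limma and 4 had an unadjusted p under 0.05, beside the 9.74% of all genes. All 9 had a mean log2 ratio below 0, with a median of −0.25. EEF1A2 (−0.09) and the mitochondrial factors TUFM (−0.05), TSFM (−0.06) and GFM1 (−0.07) were near 0. On the values as deposited, which move all genes up by the amount given above, 4 of 9 were above 0, and under each scaling 0 of 9 were above the median of all genes. EEF1A1, which carries charged transfer RNA, stood at 5288, 2231 and 3876 FPKM after IFN-β against 8185, 4083 and 8065 FPKM untreated (−0.85 ± 0.17, SE, n = 3 lines, limma, adjusted p = 0.173). EEF1G, a subunit of its exchange factor, had −0.73 ± 0.16 (limma, adjusted p = 0.251). The groups of EEF1A1 overlapped between lines but each line was lower after IFN-β.

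Of the 3 scaffold proteins of the complex, AIMP1, AIMP2 and EEF1E1, none was called by limma and 0 had an unadjusted p under 0.05, with mean ratios between 0.06 and 0.20. EEF1E1 stood at 45.6, 66.0 and 41.5 FPKM after IFN-β against 39.5, 47.3 and 47.0 FPKM untreated. Of the partners in mitochondrial charging 4 were tested and none was called or had an unadjusted p under 0.05 by limma, among them GATC, a subunit of the amidotransferase that completes glutamine charging, at 0.22 ± 0.17 (adjusted p = 0.68). Of 8 genes of tryptophan breakdown 2 passed the filter, KYNU (−0.28 ± 0.12, limma, adjusted p = 0.53) and AFMID (0.01 ± 0.14, adjusted p = 0.978), and IDO1, the interferon-induced enzyme that uses up tryptophan, reached at most 0.40 FPKM.

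The second question was whether knockdown of IRF1-AS moved the synthetases. None of the 35 members tested was called by limma, and none had an unadjusted p under 0.05, where 0% of all 12813 genes were called and 842, or 6.57%, had an unadjusted p under 0.05. The median 95% interval of a member reached 0.53 to either side on the log2 scale, and 33 of 35 intervals lay within 2-fold, AARS and HARS2 being the exceptions. WARS stood at 18.5 FPKM in KYSE30 and 31.1 FPKM in KYSE180 after knockdown, against 29.5 and 25.9 FPKM in the vector controls, lower in 1 line and higher in the other (−0.19 ± 0.27, SE, n = 2 lines, limma, adjusted p = 0.922). Its ratio in KYSE30, −0.65, was the lowest of all members in that line.

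HARS2, the mitochondrial histidine enzyme, was the 1 member of 35 at or past 2-fold, in KYSE180, where 1.37% of all genes were higher and 2.40% lower by that much. In KYSE30, where 1.36% of all genes were higher and 3.64% lower, there were 0 members. It stood at 13.6 FPKM in KYSE30 and 31.9 FPKM in KYSE180 after knockdown, against 12.4 and 12.5 FPKM in the vector controls, so 1 library of 4 stood apart (0.71 ± 0.32, SE, n = 2 lines, limma, adjusted p = 0.785). HARS2 lies head to head with HARS, the cytosolic histidine gene, with which it shares 437 bases on opposite strands of chromosome 5. HARS stood at 20.8 and 28.7 FPKM after knockdown against 15.8 and 28.8 FPKM in the vector controls, near level in KYSE180.

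The other members with the smallest p after knockdown had values higher in both lines. FARSB, a subunit of the phenylalanine enzyme, stood at 23.6 and 18.2 FPKM after knockdown against 17.7 and 14.7 FPKM in the vector controls (0.34 ± 0.19, SE, n = 2 lines, limma, adjusted p = 0.81). KARS, the lysine enzyme, stood at 91.9 and 136 FPKM after knockdown against 73.5 and 111 FPKM (0.30 ± 0.18, limma, adjusted p = 0.817). CARS2 and SARS2, the mitochondrial cysteine and serine enzymes, had 0.31 ± 0.19 and 0.30 ± 0.19 (limma, adjusted p = 0.817 and 0.822). Of the mitochondrial enzymes 8 of 16 were higher and 1 lower in both lines, and of the cytosolic enzymes 5 of 19 were higher and 3 lower, while 24.6% of all genes were higher and 27.8% lower in both lines. The cytosolic median minus the mitochondrial median was −0.14 in KYSE30 and −0.02 in KYSE180. The highest ratios in a line were MARS2 in KYSE30, at 0.47, and HARS2 in KYSE180, and the lowest was AARS in KYSE180, at −0.91.

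**Figure D4:**
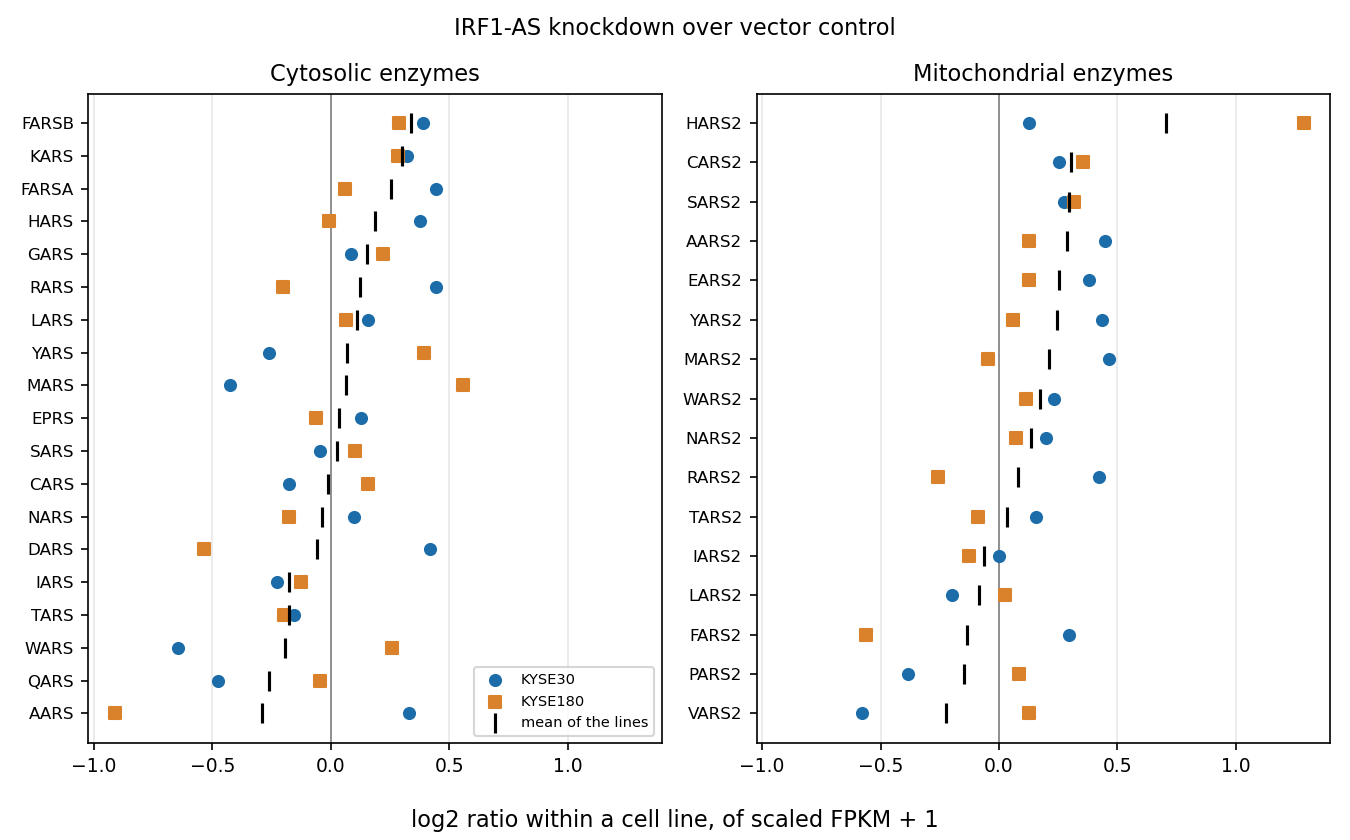
Log2 ratio of IRF1-AS knockdown over vector control (horizontal axis, scaled FPKM + 1) in KYSE30 and KYSE180 for the 19 cytosolic enzymes tested on the left and the 16 mitochondrial enzymes on the right, ordered by the mean of the lines (black tick). HARS2 in KYSE180 lay at 1.29, apart from the other members, and AARS, DARS and MARS lay on opposite sides of 0 in the lines.

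Of the 31 amino acid response genes none was called after knockdown by limma, 7 had an unadjusted p under 0.05, beside the 6.57% of all genes, and 7 had a mean log2 ratio above 0. The list median was −0.46 in KYSE30 and 0.05 in KYSE180. DDIT4, an inhibitor of mTOR signalling, had −1.27 ± 0.23 and CEBPB, a C/EBP transcription factor, −0.89 ± 0.18 (SE, n = 2 lines, limma, adjusted p = 0.608 and 0.678), both lower by value in each line. ATF5, also among the 7, went the other way and was higher by value in each line (1.43 ± 0.45, limma, adjusted p = 0.743). The rest of the 7 had mean log2 ratios below 0. Of the elongation factors 0 of 9 were called and 0 had an unadjusted p under 0.05 by limma, with GFM1 at 0.34 ± 0.21 and EEF1A2 at 0.27 ± 0.18 (adjusted p = 0.821 and 0.831). Among the scaffold proteins AIMP2 had 0.48 ± 0.20 and EEF1E1 0.44 ± 0.24, and among the charging partners GATC had 0.76 ± 0.30, none of them called by limma (adjusted p between 0.756 and 0.809). Of the tryptophan genes KYNU had −0.97 ± 0.34 and AFMID 0.11 ± 0.19 (limma, adjusted p = 0.743 and 0.944). In the same libraries 0 of the 9 interferon reference genes were called by limma and 6 had an unadjusted p under 0.05, all 9 with lower values after knockdown. ISG15 stood at 1124 FPKM in the vector control of KYSE30 and 31.7 FPKM in that of KYSE180. Untreated KYSE30 in the interferon experiment, scaled separately, had 48.5 FPKM. Of the 9, 3 had a mean log2 difference above 0 in KYSE180 against KYSE30 in the knockdown experiment. A link to the values of WARS in KYSE30 was not tested.

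By level, the cytosolic median stood above the mitochondrial median in every library. The ratio of the cytosolic median to the mitochondrial median, per length in scaled FPKM, lay between 4.62 and 5.00 in the 6 interferon libraries and between 3.14 and 4.10 in the 4 knockdown libraries. Averaged over the interferon experiment TARS, KARS and RARS were highest, at 210 ± 52.0, 189 ± 65.0 and 153 ± 45.5 FPKM, and PARS2, AARS2 and MARS2 lowest, at 6.06 ± 1.84, 6.72 ± 1.99 and 10.97 ± 4.56 FPKM (SD, n = 6 libraries of 3 lines and 2 arms). Neighbours in this order differed by less than the larger of their SDs, except HARS, at 57.4 ± 6.84 FPKM, and FARSA, at 46.7 ± 7.70 FPKM. IARS2 was the highest mitochondrial enzyme, at 96.2 ± 18.1 FPKM, and ranked 9 of 36 by mean level. At the other end VARS, at 16.01 ± 8.92 FPKM, was the lowest cytosolic enzyme. It ranked 29 of 36, so other mitochondrial enzymes besides IARS2 also lay inside the range of the cytosolic enzymes. WARS ranked 16 of 36 by mean level and had the widest range of all members, 7.33-fold between its lowest and highest library.

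In the knockdown experiment, which was normalized separately, KARS, FARSA (the other phenylalanine subunit) and IARS2 were highest, at 103 ± 26.6, 82.8 ± 15.0 and 67.1 ± 2.73 FPKM (SD, n = 4 libraries). VARS, VARS2 and LARS2 were lowest, at 0.955 ± 1.05, 5.50 ± 1.26 and 5.96 ± 1.84 FPKM. VARS and VARS2 lie in the MHC region of chromosome 6, where those tables hold 7 and 6 rows for copies on alternate haplotypes that were added together here, and the primary row of VARS was listed at 0 in all 4 libraries. Their values there are uncertain. The gaps between FARSA and IARS2 and between VARS2 and VARS were the ones past the larger SD of the neighbours in this order.

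The third question was how far the lines differ. In these differences the 2 arms of a line stand as its libraries. The SE rests on how treatment ratios vary between lines, moderated as above, and it holds no spread between cultures of 1 line. KYSE180 and KYSE30 were compared in separate libraries of both experiments (n = 2 libraries a line in each), with 45.7% of all 12428 genes called in the interferon experiment (21.9% higher and 23.8% lower in KYSE180) and 28.7% of all 12813 in the knockdown experiment (14.9% higher and 13.8% lower). Of the members, 16 of 36 were called in the interferon experiment (6 higher and 10 lower) and 5 of 35 in the knockdown experiment (1 higher and 4 lower). Neither share was above that of all genes. CARS2, the mitochondrial cysteine enzyme, was higher in KYSE180, and IARS, MARS2 and YARS, the isoleucine, mitochondrial methionine and tyrosine enzymes, were lower in KYSE180 in both experiments. These 4 are 26.7% of the 15 members called in the interferon experiment and tested in both, and 80% of the 5 called in the knockdown experiment. Over the 10038 genes tested in both experiments, genes called in both made up 40.7% of the interferon-experiment calls and 76.8% of the knockdown-experiment calls. Of the 35 members 23 had the same sign, with r = 0.57 and rho = 0.49 across members, and of all those genes 74.4% did, with r = 0.79 and rho = 0.69. Genes share their libraries and are no replicates.

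MARS2 had the widest gap of these. In the interferon experiment it stood at 5.86 and 5.57 FPKM in KYSE180 (IFN-β and untreated), against 16.3 and 15.2 FPKM in KYSE30. In the knockdown experiment it stood at 3.92 and 4.08 FPKM in KYSE180 (knockdown and vector), against 28.5 and 20.4 FPKM in KYSE30. The log2 differences of MARS2 were −1.32 ± 0.15 and −2.33 ± 0.23 (SE, limma, adjusted p = 0.00108 and 0.00339). IARS was likewise lower in KYSE180, by log2 differences of −1.11 ± 0.16 and −1.31 ± 0.18 (limma, adjusted p = 0.00229 and 0.00767), at 97.2 and 103 FPKM against 206 and 228 FPKM in the interferon experiment. YARS had −0.73 ± 0.19 and −1.24 ± 0.23, and CARS2 0.71 ± 0.18 and 1.14 ± 0.19 (limma, adjusted p between 0.0119 and 0.0218).

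The other calls were made in 1 experiment each. In the interferon experiment WARS (1.62), AARS (1.07), LARS2 (0.65), FARS2 (0.55) and CARS (0.55) were higher in KYSE180, and FARSB (−1.43), DARS (−0.94), RARS2 (−0.83), VARS (−0.82), TARS (−0.74), NARS2 (−0.58) and EPRS (−0.57) lower, as log2 differences. In the knockdown experiment SARS (−1.02) was lower. Of the 15 interferon-experiment calls tested in both, 12 had the same sign in the knockdown experiment, beside 87.9% of such calls over all genes, and AARS, CARS and DARS had the opposite sign. WARS, whose libraries after IFN-β enter the first difference, had 0.27 ± 0.27 in the knockdown experiment (limma, adjusted p = 0.497).

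**Figure D5:**
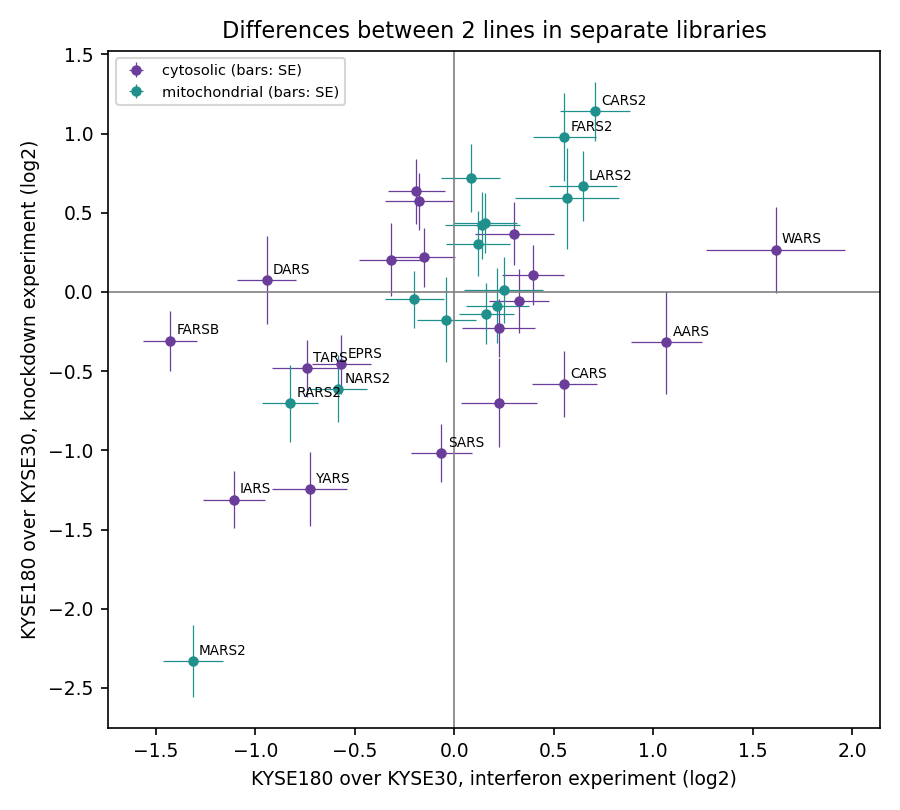
Log2 difference of KYSE180 over KYSE30 in the interferon experiment (horizontal axis) and in the knockdown experiment (vertical axis) for the 35 members tested in both, cytosolic in purple and mitochondrial in green, with bars of 1 SE and names on members called in either. MARS2, IARS and YARS lay low and CARS2 high on both axes, while AARS and CARS lay right of 0 and below 0.

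KYSE450 was set against the mean of KYSE30 and KYSE180 in the interferon experiment (n = 2 libraries of KYSE450 and 4 of the other lines), where 48.4% of all genes were called, 23.4% higher and 25% lower in KYSE450. Of the members 21 of 36 were called, 15 higher and 6 lower. LARS had the largest gap, at 231 and 277 FPKM in KYSE450 (IFN-β and untreated), against 48.2 and 57.3 FPKM in KYSE30 and 39.6 and 56.2 FPKM in KYSE180. LARS in KYSE450 was thus about 5-fold over the mean of the other lines (2.32 ± 0.13, SE, limma, adjusted p = 0.000127). NARS2, the mitochondrial asparagine enzyme, stood at 30.6 and 36.7 FPKM in KYSE450 against between 8.55 and 14.4 FPKM elsewhere (1.49 ± 0.13, limma, adjusted p = 0.000426).

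By compartment, 10 of 20 cytosolic enzymes were higher and 2 lower in KYSE450, and 5 of 16 mitochondrial enzymes were higher and 4 lower. After LARS the cytosolic enzymes higher in KYSE450 were WARS (1.38), VARS (1.24), CARS (1.02), KARS (0.87), FARSB (0.77), DARS (0.76), RARS (0.73), MARS (0.69) and AARS (0.52), and IARS (−0.45) and NARS (−0.40) were lower, as log2 differences. The mitochondrial enzymes higher were, after NARS2, YARS2 (1.22), CARS2 (1.14), EARS2 (0.99) and LARS2 (0.78), and those lower were PARS2 (−0.76), VARS2 (−0.66), AARS2 (−0.66) and TARS2 (−0.60). Without KYSE30 the difference of IARS turned to 0.13 (limma, adjusted p = 0.68) and that of AARS fell to 0.00 (adjusted p = 0.991), and the calls of WARS, MARS, LARS2 and NARS were lost. Without KYSE180 FARSB had 0.06 and DARS 0.29, and those calls and that of NARS were lost.

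The companion lists also differed between lines. In KYSE450 13 of 31 amino acid response genes were called higher and 4 lower, beside 23.4% and 25% of all genes. The 6 with the smallest p were SLC7A5, a leucine transporter (2.02 ± 0.13), VLDLR (1.64), SLC7A1 (1.39), SLC38A2 (−1.27), SHMT2 (1.12) and SLC3A2, the partner of SLC7A5 (1.44). In KYSE180 against KYSE30, 14 were called higher and 1 lower in the interferon experiment, beside 21.9% and 23.8% of all genes. The 6 with the smallest p there were ASNS (2.61 ± 0.14), PCK2 (2.70), NUPR1 (5.54), ALDH1L2 (1.91), PSAT1 (0.94) and SLC7A5 (0.91). In the knockdown experiment 7 were called higher and 9 lower, beside 14.9% and 13.8% of all genes. ASNS differed by 0.37 ± 0.53 there (limma, adjusted p = 0.627). MTFMT (0.88) and QRSL1 (0.43) of the charging partners and AIMP2 (0.83) and AIMP1 (0.46) of the scaffold were higher in KYSE450.

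Of the 36 members 12 overlap a protein-coding gene in the annotation, 11 of them on the opposite strand. For those 11, reads of the partner cannot be told apart from reads of the member without knowledge of the strand setting. YARS2 shares the longest such stretch that is not a readthrough model, 18161 bases with DNM1L. WARS is among the 11 and shares 388 bases with WDR25. MARS shares 13370 bases with ARHGAP9, beside those shared with DDIT3. On the same strand SARS2 overlaps AC011455.2 over 15493 bases, VARS2 overlaps GTF2H4 over 5865 bases and HARS2 overlaps ZMAT2 over 639 bases. A strand setting would not tell those reads apart.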

How the data were processed

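Total RNA of 10 ESCC cell line libraries had been sequenced by standard Illumina preparation, per the labels' protocols. The authors deposited FPKM in 1 table per library, per the file headers. TopHat, HTSeq and hg38 are named, without versions, per the submitters' processing notes. Read depth, annotation and strand setting are not stated, so the precision of 1 library is unknown.

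The interferon tables hold 28032 long non-coding transcripts, summed here to 16044 genes, and 20502 rows of named genes. The knockdown tables hold 23555 rows, of which 946 copies on alternate haplotypes were added to their primary gene. Libraries were scaled within an experiment by medians of ratios over named genes, and log2(scaled FPKM + 1) was tested two-sided by limma 3.58.1 (R 4.3.3, statmod 1.5.0, trended and robust empirical Bayes). The model held a block for cell line and a term for treatment, with Benjamini-Hochberg adjustment over all genes at 0.05. Genes entered at 1 FPKM or more in 3 of the 6 or 2 of the 4 libraries. Fold changes on this scale understate those of low genes. The line differences come from the same fits. The design allowed for counts, and the files hold FPKM, for which the same limma test had been written.

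Libraries of 1 line are paired by the labels. After subtraction of group means, both libraries of a line correlated over genes with r = 0.910 for KYSE30, 0.841 for KYSE180 and 0.876 for KYSE450 in the interferon experiment, and 0.842 in the knockdown experiment. On simulated data 98 of 100 genes changed by a log2 of 1 were recovered for the IFN-β comparison (12275 genes) and 74 of 100 for the knockdown comparison (12672 genes). Unchanged genes made up 6.16% of the simulated IFN-β calls and 18.3% of the simulated knockdown calls. Recovery of a change that differs in size between lines was not tested. In the measured data 6 of the 9 interferon reference genes were called after IFN-β. IRF9 (2.83 ± 0.35), MX1 (2.55 ± 0.95) and STAT2 (1.77 ± 0.32) were not (limma, adjusted p between 0.0760 and 0.530). After knockdown 0 of all 12813 genes were called.

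The members, lists and tests were chosen with earlier results of these data known. Named with values are WARS and WARS2, every member called or the 5 with the smallest p, the 3 highest and 3 lowest by level, the extremes of each line, and from other lists the called genes up to 6 or the 2 with the smallest p. YARS, TARS, GARS, SARS and MARS of the interferon comparison, DDIT3, ATF4, ATF5, EEF1E1, IDO1 and the genes named for promoter letters or overlaps were chosen after their values were seen. Alternatives were other scalings, pseudocounts, filters, fit options and leaving out each line. A few genes of the companion lists are not reported here.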

Additional observations from a re-analysis of the deposited data

Results flagged for a closer look

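In 4 cases a member had log2 ratios of opposite sign in 2 lines, each at least 0.3 from 0, and in each case the difference between the lines was not tested, since a line gave 1 library an arm. After IFN-β, HARS2 had 0.60 in KYSE180 and −0.50 in KYSE450. It stood at 50.03 FPKM in KYSE180 and 17.8 FPKM in KYSE450 after IFN-β, against 32.6 and 25.5 FPKM untreated. After IRF1-AS knockdown, AARS had 0.33 in KYSE30 and −0.91 in KYSE180, at 53.4 and 27.3 FPKM after knockdown against 42.3 and 52.4 FPKM in the vector controls. DARS, the aspartate enzyme of the multisynthetase complex, had 0.42 in KYSE30 and −0.54 in KYSE180, at 32.9 and 24.6 FPKM after knockdown against 24.4 and 36.2 FPKM in the vector controls. MARS had 0.56 in KYSE180 and −0.43 in KYSE30, at 40.2 and 46.6 FPKM after knockdown against 27.0 and 63.0 FPKM in the vector controls. No group had the 4 samples needed to look for a single outlying library.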

How the results depend on the processing

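The counts of members called kept their side of the threshold under the scalings, pseudocounts, filters and fit options tried, with 2 exceptions. On the values as deposited 1 member, WARS, was called after IFN-β, and with no filter on low values 2 of 36 members were called between KYSE180 and KYSE30 in the knockdown experiment, against 5 with the filter. Without the replicate block 0 members were called after IFN-β and 0 after knockdown, and 13 of all genes after IFN-β against 51 with it. Leaving out 1 line at a time gave 0 members called after IFN-β each time and between 18 and 22 for KYSE450 against the rest. It moved the cytosolic minus mitochondrial median between 0.0387 and 0.192 after IFN-β and between −0.140 and −0.0154 after knockdown, and WARS minus the other cytosolic enzymes between 0.662 and 1.30. For IARS in KYSE450 it gave between −0.99 and 0.13, and the cause was not tested. After knockdown, leaving out a line leaves 1 pair and no test. Calls of all genes after IFN-β were 237 as deposited, 77 over named genes alone, 14 with no filter, 79 without KYSE180 and 32 without KYSE450. Between KYSE180 and KYSE30 in the knockdown experiment 1157 of all genes were called with no filter and 2399 at an average of 5 FPKM or more, against 3677. As deposited, the calls of RARS2, VARS, TARS, NARS2, YARS and EPRS in KYSE180 and of AARS and NARS in KYSE450 were lost. Of the values for single members under these settings, 469 kept direction and side, 26 lost a call, 1 (WARS as deposited) gained one and 1 (IARS) turned. The FPKM carry no depth, so members near 1 FPKM, such as VARS in the knockdown tables, have unknown counting error.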
